A study of Mus musculus with 3 samples.

Results

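Inflammatory CC chemokine genes, 6 in all, were followed by cell class in mouse skin: the ligands Ccl3, Ccl4, Ccl5, Ccl6 and Ccl9 and the receptor Ccr1. The members were the rows of these symbols, and each of the 6 symbols had 1 row among the 31253 genes of the skin tables. The study concerns how stress worsens skin inflammation through sympathetic nerves and eosinophils. The RHS library held CD45 bead-selected skin cells of mice given RHS and MC903, and the control library held CD45 bead-selected skin cells of mice given MC903. The labels do not expand RHS. MC903 is calcipotriol, a vitamin D analogue that causes an atopic dermatitis-like inflammation when put on skin, and both groups received it. The preparation text also speaks of mice given EtOH, which the sample labels do not. The labels give neither the strain nor the age of the mice, nor how many were pooled for a skin library. Each group had 1 library, so there was no replicate check and no test between groups. Intervals are 95% intervals and cover counting error only.

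Chemokines are small secreted proteins that draw leukocytes along a gradient and act through G protein-coupled receptors. Ccl3 and Ccl5 bind Ccr1, and Ccl5 also binds Ccr3. Ccl6 and Ccl9 are ligands of Ccr1 found in rodents. Ccr1 is carried by neutrophils, monocytes and macrophages and draws them into inflamed tissue, and activated basophils, macrophages and cytotoxic T cells are known sources of the ligands.

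The skin libraries held 13339 barcodes with 52762575 UMIs (RHS) and 12979 barcodes with 55200785 UMIs (control), where a UMI marks 1 captured transcript. Filters kept 12953 RHS and 12577 control cells, with medians of 3101 and 3233 UMIs, and 5 barcodes occurred in both libraries. The cells fell into 26 clusters, built without the 6 genes and the other CC chemokine ligands and receptors. Of these, 22 were named from markers and 4 stayed unnamed and are called by their leading genes. Bead selection was incomplete, since keratinocyte-like, fibroblast-like, endothelial cell-like and melanocyte-like cells were among them. Basophil-like cells (340 RHS, 398 control) carried 7 of 8 basophil markers, and neutrophil-like cells (168 RHS, 184 control) carried 9 of 9. Eosinophil-like cells (99 RHS, 67 control) rested on 3 of 9 markers (Ccr3, Prg2 and Alox15), with Siglecf and Epx not among them, and their median depth was 620 UMIs (RHS) and 645 UMIs (control). The CD4 T cell-like class was led by Il5 and Gata3 beside Cd4, genes that type 2 innate lymphoid cells also use. The macrophage classes are called by Cd163 and by Gpnmb.

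Basophil-like cells had the highest level of Ccl3, Ccl4, Ccl6 and Ccl9 of all 26 classes in both libraries. Levels are the UMIs of a gene scaled to 1000000 UMIs of the class (CPM). For Ccl3 the level was 42559 CPM in RHS and 36934 CPM in control basophil-like cells. Counted by UMIs, Ccl3 ranked 1 among all genes in these cells in both libraries. Ccl4 ranked 5 (RHS) and 6 (control), Ccl6 ranked 8 and 7, and Ccl9 ranked 10 in each. The 5 ligands made up 8.77% (RHS) and 7.63% (control) of all UMIs of the class. These ranks compare transcript tags and carry no correction for how well each gene is captured.

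Ccl3 was present in every basophil-like cell of both libraries. It took a median of 3.46% of a cell's UMIs in RHS and 3.03% in control cells, and at most 16.7% and 12.95%. Ccl4 was detected in 96.8% of RHS and 96.2% of control basophil-like cells. Ccl6 was detected in 99.1% and 98.5%, and Ccl9 in 100% and 98.2%. Ccl5 was close to absent there, with 47 UMIs (RHS) and 11 UMIs (control) in the whole class. In the cell with the largest share, the 5 ligands together held 25.0% of the UMIs in each library.

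**Figure D1:**
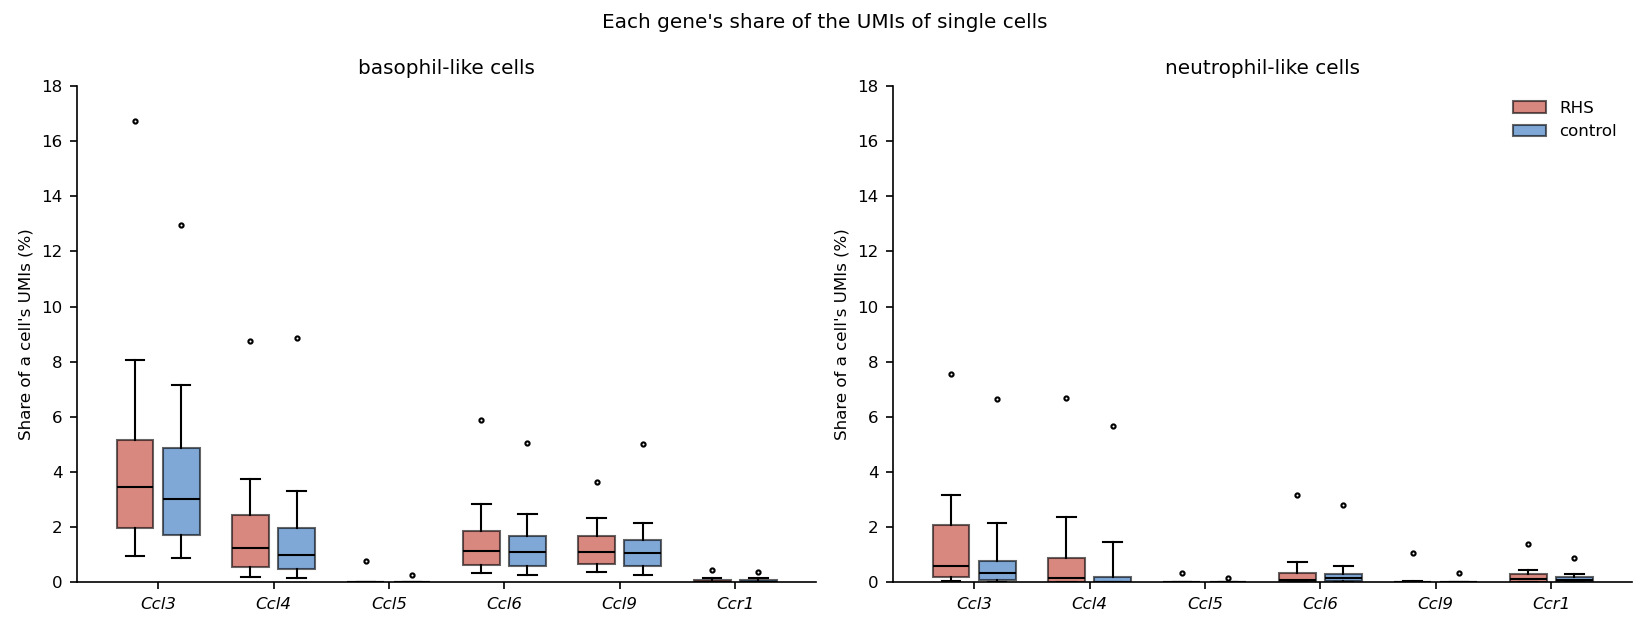
Share of a single cell's UMIs (%) taken by each gene, in basophil-like cells (left panel) and neutrophil-like cells (right panel), RHS left of control. Boxes span the quartiles with the median, whiskers the 10th to 90th percentile, and the dot is the highest cell; the Ccl3 median is 3.46% (RHS) and 3.03% (control) in basophil-like cells.

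Beyond basophil-like cells, Ccl3 stood high in neutrophil-like cells, with 11879 CPM in RHS and 7269 CPM in control cells. The mean of the basophil-like levels was 4.15 times that of the neutrophil-like ones. Cd163 macrophage-like cells followed with 1342 CPM (RHS) and 1787 CPM (control), eosinophil-like cells with 976 and 1692 CPM, and monocyte-like cells with 734 and 458 CPM. The ranges of the 2 libraries overlapped between Cd163 macrophage-like and eosinophil-like cells, so their order was not resolved. All other classes were at or below 170.4 CPM in both libraries.

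Free RNA set the lowest level that could be read. Keratinocyte-like and melanocyte-like cells, taken as classes that should lack these genes, held Ccl3 at 12.8 CPM (RHS, 507 cells, median 4619 UMIs) and 19.7 CPM (control, 1315 cells, median 5941 UMIs). A Ccl3 UMI was found in 5.13% of these RHS and 4.49% of these control cells, against 100% of basophil-like cells. Ccl4 was at 30.4 and 12.2 CPM there, Ccl5 at 49.97 and 13.9 CPM, Ccl6 at 24.4 and 12.9 CPM, Ccl9 at 22.2 and 12.4 CPM, and Ccr1 at 2.63 and 1.60 CPM. The limit used UMIs per cell and not CPM: for Ccl9 these cells held 0.116 (RHS) and 0.0829 (control). A class with fewer than 5 times this number of UMIs per cell in both libraries is called near free RNA. The limit was set after the levels were seen. A shallow class can thus be near free RNA at a far higher CPM. A class can clear the limit through its higher library alone.

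**Figure D2:**
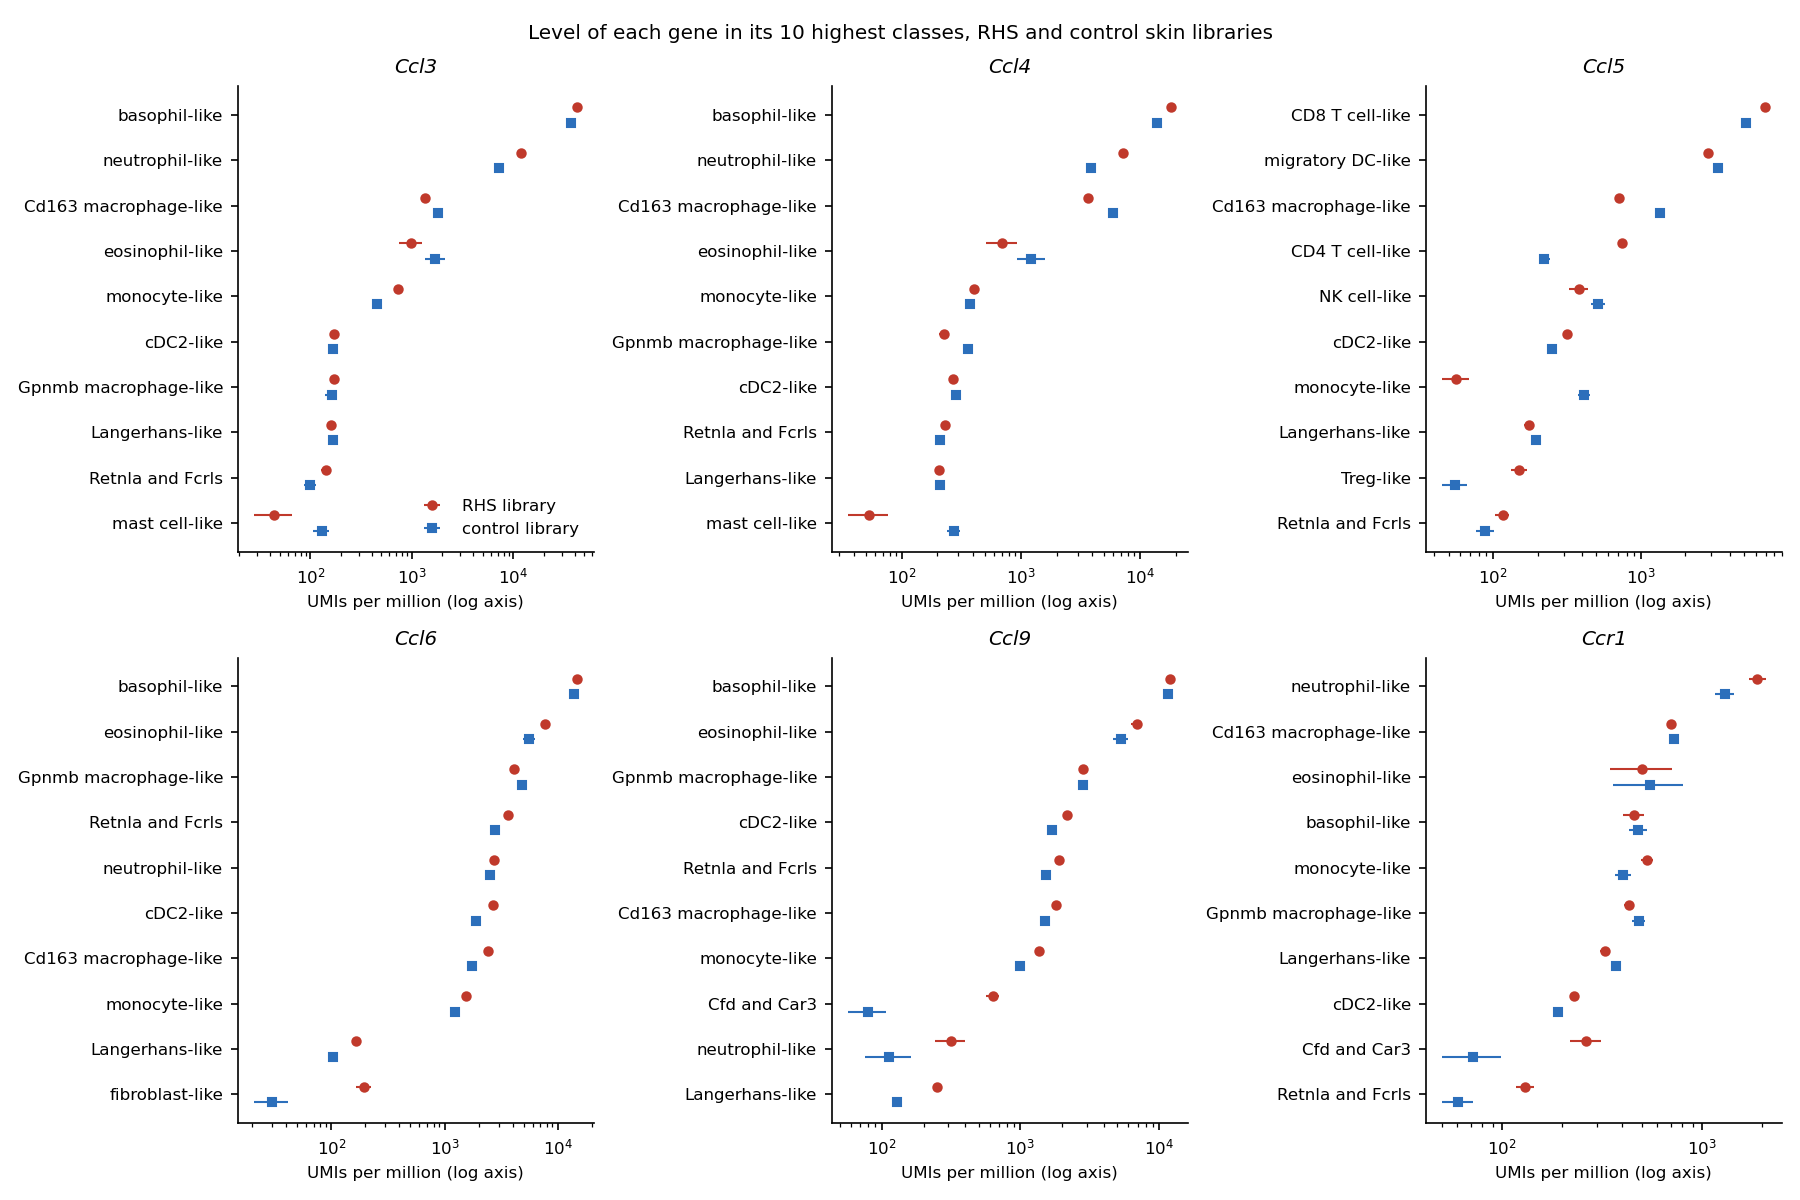
CPM (log axis) for each gene in its 10 highest classes, RHS (circle) drawn above control (square), with exact Poisson 95% intervals. Ccl3, Ccl4, Ccl6 and Ccl9 are highest in basophil-like cells, Ccl5 in CD8 T cell-like cells and Ccr1 in neutrophil-like cells.

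Ccl4 shared its 3 highest classes with Ccl3. Its level was 18200 CPM (RHS) and 13950 CPM (control) in basophil-like cells, 7194 and 3898 CPM in neutrophil-like cells, and 3679 and 5916 CPM in Cd163 macrophage-like cells. The last pair of classes was not resolved in order, since their library ranges overlapped. Across the 26 classes the log2 levels of Ccl3 and Ccl4 had a Pearson correlation of 0.97, the highest among genes with at least 500 UMIs for either. The classes come from the same 2 libraries, so this is a description. Next for Ccl3 came Acod1, which makes the metabolite itaconate in activated myeloid cells (r = 0.94), and Cyp4f18 (r = 0.91). For Ccl4 they were C5ar1, a receptor of complement C5a (r = 0.91), and the kinase gene Mapkapk2 (r = 0.89).

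The balance of the 2 genes differed between classes. There were 2.34 Ccl3 UMIs for each Ccl4 UMI in RHS basophil-like cells (interval 2.29 to 2.39) and 2.65 in control ones (2.59 to 2.71). Neutrophil-like cells had 1.65 (RHS) and 1.86 (control). Cd163 macrophage-like cells had 0.365 (0.357 to 0.373) in RHS and 0.302 (0.294 to 0.310) in control. Basophil-like cells thus held more Ccl3 than Ccl4 tags and Cd163 macrophage-like cells the reverse, in both libraries. As a result the pair was spread over different cells: basophil-like cells held 57.3% (RHS) and 66.5% (control) of all Ccl3 UMIs of a library, while Cd163 macrophage-like cells held 62.4% and 58.5% of all Ccl4 UMIs.

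In Cd163 macrophage-like and basophil-like cells, Ccl3 and Ccl4 levels rose together over cells. In Cd163 macrophage-like cells, 84.8% of the RHS and 89.0% of the control cells with Ccl3 also held Ccl4. Ccl4 was abundant in this class, at 3679 CPM (RHS) and 5916 CPM (control), so this share alone shows no link. Spearman's rho over cells was 0.65 (1619 RHS cells) and 0.70 (751 control cells) there. In basophil-like cells rho was 0.49 in RHS and 0.47 in control cells. Ccl3 with Ccl6 gave -0.05 and -0.03 there. Cells of a library differ in depth, which all pairs share. In the RefSeq annotation (GRCm38.p6) the spans of Ccl3 and Ccl4 overlap on chromosome 11, and an lncRNA gene overlaps Ccl6 (E230016K23Rik) and another Ccl5 (Gm32650). Whether counting used the strand is not stated in the labels or files, so reads in an overlap cannot be assigned to one gene with certainty.

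**Figure D3:**
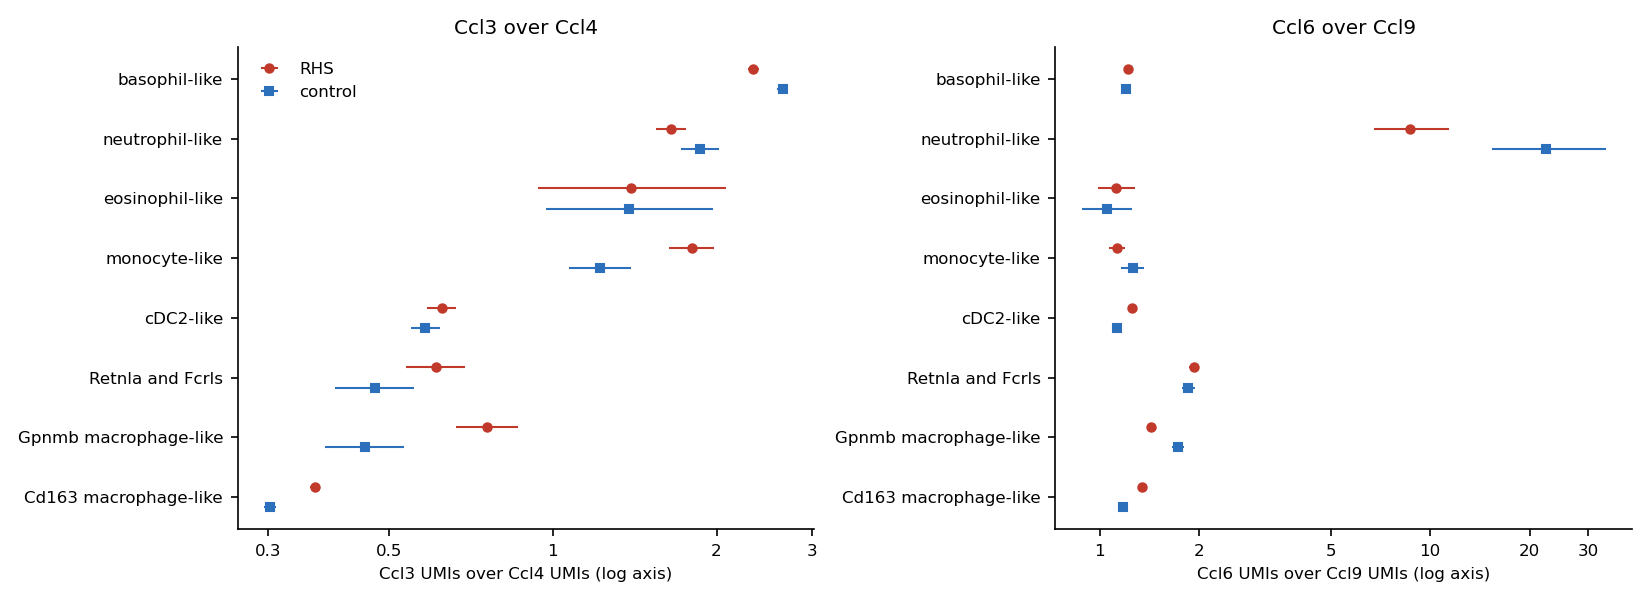
Ccl3 UMIs over Ccl4 UMIs (left) and Ccl6 UMIs over Ccl9 UMIs (right) in 8 classes (log axes), RHS (circle) above control (square), with 95% intervals. Ccl3 exceeds Ccl4 in basophil-like cells and is below it in Cd163 macrophage-like cells. Neutrophil-like cells, where Ccl9 is near free RNA, stand apart in the right panel at 8.71 (RHS) and 22.4 (control).

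Ccl5 had another distribution. It was highest in CD8 T cell-like cells, at 6904 CPM (RHS) and 5103 CPM (control), with a UMI in 83.4% of RHS and 74.3% of control cells. Migratory dendritic cell-like cells followed with 2840 CPM (RHS) and 3310 CPM (control). Cd163 macrophage-like cells had 710 and 1336 CPM, CD4 T cell-like cells 746 and 223 CPM, and NK cell-like cells 378 and 511 CPM. The first 2 classes did not overlap each other or the rest in their library ranges, while CD4 T cell-like cells overlapped both Cd163 macrophage-like and NK cell-like cells.

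CD8 T cell-like cells held 57.7% of the Ccl5 UMIs of the RHS library and 27.1% of those of the control library. Migratory dendritic cell-like cells held 9.53% (RHS) and 28.9% (control). The class sizes differed in the same direction: there were 1485 RHS and 487 control CD8 T cell-like cells, and 240 RHS and 340 control migratory dendritic cell-like cells. Across the 26 classes Ccl5 correlated with the other 5 genes at r between -0.04 and 0.09. The gene with the most similar pattern was Epsti1, an interferon-induced gene (r = 0.83).

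Ccl6 and Ccl9 were spread over the myeloid classes. In basophil-like cells Ccl6 stood at 14752 CPM (RHS) and 13861 CPM (control), and Ccl9 at 12091 and 11552 CPM. Eosinophil-like cells came next, with Ccl6 at 7764 CPM (RHS) and 5583 CPM (control) and Ccl9 at 6910 and 5308 CPM. Both genes were found in most of these shallow cells, Ccl6 in 91.9% of RHS and 86.6% of control cells and Ccl9 in 88.9% and 76.1%. Gpnmb macrophage-like cells had Ccl6 at 4087 CPM (RHS) and 4844 CPM (control) and Ccl9 at 2848 and 2812 CPM.

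Larger classes with lower levels held more of the total. cDC2-like cells (1502 RHS, 1462 control) had Ccl6 at 2704 CPM (RHS) and 1901 CPM (control) and Ccl9 at 2154 and 1679 CPM. They held 32.3% (RHS) and 35.4% (control) of all Ccl6 UMIs and 34.5% and 40.0% of all Ccl9 UMIs, the largest share of any class for both genes. The name of this class rested on 5 of 8 markers (Cd209a, Mgl2, Itgax, Tnip3 and Cd209d), with Flt3, Clec10a and Klrd1 not among them. Its leading genes Ear2, Fcrls, Retnla and Cd209a also led the unnamed Retnla and Fcrls cluster. Monocyte markers summed to 4731 CPM (RHS) and 3882 CPM (control) in cDC2-like cells. The Retnla and Fcrls cluster, Cd163 macrophage-like and monocyte-like cells had between 991 and 3675 CPM of either gene in both libraries. No lymphoid class reached 5 times the free RNA level for either gene.

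Neutrophil-like cells separated the 2 genes. Ccl6 was at 2738 CPM (RHS) and 2528 CPM (control) there, and Ccl9 at 314 CPM (66 UMIs) and 113 CPM (28 UMIs). There were 8.71 Ccl6 UMIs for each Ccl9 UMI in RHS cells (interval 6.74 to 11.4) and 22.4 in control cells (15.3 to 34.0), against 1.22 (RHS) and 1.20 (control) in basophil-like cells. The Cfd and Car3 cluster, an unnamed group of 149 RHS and 173 control cells, had the reverse balance. It was 0.0500 (0.0276 to 0.0838) in RHS and 0.244 (0.109 to 0.495) in control cells. Ccl6 in this cluster, from 15 and 10 UMIs, and Ccl9 in neutrophil-like cells were both near free RNA. The part of free RNA in these ratios was not tested.

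Ccl6 and Ccl9 are shown with their promoters because their levels followed each other over the classes (r = 0.93) and the genes are neighbours: on chromosome 11 the order of protein-coding genes is Ccl5, Ccl9, Ccl6, Ccl3, Ccl4. RefSeq promoter windows (GRCm38.p6, 250 bases before to 50 after the start) were at hand for 4 of the 6 genes. Ccl6 lies at chr11:83593038-83593337 and Ccl9 at chr11:83578587-83578886, both on the minus strand. Capitals mark runs of at least 10 bases found in both windows, 46 bases in Ccl6 and 40 in Ccl9.
Ccl6: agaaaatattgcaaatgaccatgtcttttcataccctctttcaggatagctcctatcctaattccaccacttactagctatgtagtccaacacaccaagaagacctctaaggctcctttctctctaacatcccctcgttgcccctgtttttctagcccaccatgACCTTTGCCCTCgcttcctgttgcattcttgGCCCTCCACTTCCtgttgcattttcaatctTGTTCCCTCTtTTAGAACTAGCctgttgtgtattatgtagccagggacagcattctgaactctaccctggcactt
Ccl9: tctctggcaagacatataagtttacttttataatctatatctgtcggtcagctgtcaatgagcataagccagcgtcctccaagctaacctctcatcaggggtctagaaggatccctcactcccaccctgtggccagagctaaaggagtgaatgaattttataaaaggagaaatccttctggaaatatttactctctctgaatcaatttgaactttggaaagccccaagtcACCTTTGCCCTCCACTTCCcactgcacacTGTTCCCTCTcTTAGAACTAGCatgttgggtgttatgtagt
The shared runs kept their order in both windows. The longest was 13 bases (GCCCTCCACTTCC), and 0.201% of the 32850 other windows held a run of that length in common with Ccl6 and 0.189% with Ccl9. No run of 10 bases was shared among the other pairs of Ccl3, Ccl6, Ccl9 and Ccr1. Motifs were searched on both strands. The kappaB-like motif GGGNNNNNCC occurred once each in the Ccl9 and Ccr1 windows and in 50.8% of all 32851 windows. The AP-1 motif TGANTCA occurred once in Ccl9 and in 7.81% of all windows. Neither was found in the Ccl3 or Ccl6 window. The motif of GATA factors, AGATAA, occurred in 11.2% of all windows and that of C/EBP factors, TTGCNNCAA, in 2.08%, and neither was found in the 4 windows. A missing match says only that these letters are not in the window.

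The receptor Ccr1 was highest in neutrophil-like cells, at 1895 CPM (RHS) and 1306 CPM (control), with a UMI in 126 of 168 RHS and 130 of 184 control cells. Cd163 macrophage-like cells followed with 705 CPM (RHS) and 729 CPM (control) and held 46.7% and 35.2% of all Ccr1 UMIs. Eosinophil-like cells had 503 and 550 CPM, from 33 and 26 UMIs. Basophil-like cells had 458 and 480 CPM, monocyte-like cells 531 and 405 CPM, and Gpnmb macrophage-like cells 434 and 483 CPM. The library range of monocyte-like cells overlapped those of the other 3 classes, and that of basophil-like cells overlapped that of Gpnmb macrophage-like cells. Eosinophil-like cells lay above basophil-like and Gpnmb macrophage-like cells in both libraries, with counting intervals (346 to 707 CPM in RHS and 359 to 806 CPM in control) that took in the levels of both. Langerhans cell-like cells had 327 CPM (RHS) and 373 CPM (control) and cDC2-like cells 229 and 190 CPM. The pattern over classes was closest to Hk3, a hexokinase gene (r = 0.94), Cd300lb (r = 0.94) and Itgam, which encodes CD11b (r = 0.92).

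Ligand and receptor transcripts met in the same basophil-like cells. A Ccr1 UMI was found in 46.8% of RHS and 47.7% of control basophil-like cells. All of these held Ccl3, as did every basophil-like cell, so the overlap was fixed in advance and tells nothing of the pair. In single cells Ccr1 did not track the ligand: rho with Ccl3 was -0.04 (RHS) and -0.01 (control) in basophil-like cells and 0.04 and 0.10 in Cd163 macrophage-like cells.

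Ccr3, which also binds Ccl5, lay elsewhere. It reached 534 CPM (RHS, 35 UMIs) and 634 CPM (control, 30 UMIs) in eosinophil-like cells, where it helped to name the class, and 5.74 and 4.80 CPM over all skin cells.

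**Figure D4:**
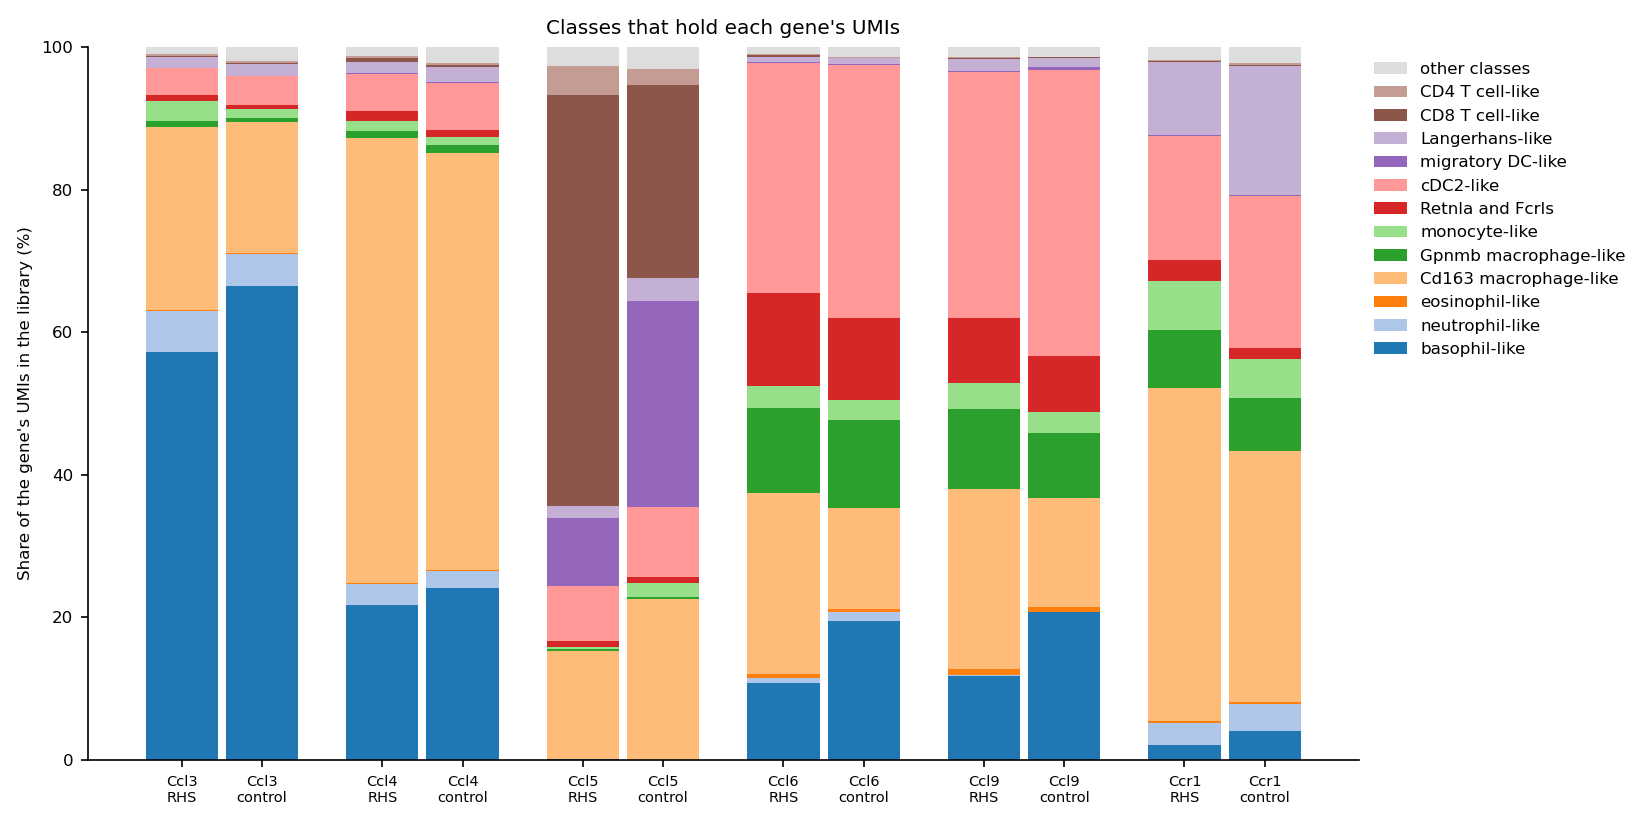
Share (%) of each gene's UMIs in a library held by 12 classes and by the other 14 together, RHS left of control for each gene. Basophil-like cells hold 57.3% (RHS) and 66.5% (control) of Ccl3, and CD8 T cell-like cells 57.7% (RHS) and 27.1% (control) of Ccl5.

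Between the libraries, all 6 genes were higher in RHS over all skin cells. Ccl5 stood at 774 CPM in RHS and 452 CPM in control (ratio 1.71), Ccl6 at 1586 and 953 CPM (1.66), Ccl9 at 1183 and 745 CPM (1.59), and Ccr1 at 249 and 158 CPM (1.57). Ccl4 stood at 973 and 772 CPM (1.26) and Ccl3 at 862 and 744 CPM (1.16). Thus 4 of the 6 genes were past 1.5-fold, all of them upward. Of all genes with at least 50 counts in the higher library, 17% were past it, 2.51% upward and 14.5% downward.

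The make-up of the libraries differed as well. With the class shares held at their mean over the 2 libraries, the ratios were 1.05 for Ccl5, 1.25 for Ccl6, 1.22 for Ccl9, 1.05 for Ccr1, 0.798 for Ccl4 and 1.05 for Ccl3. Cd163 macrophage-like cells made up 12.5% of RHS and 5.97% of control cells, and CD8 T cell-like cells 11.5% and 3.87%. Whether these shares reflect the skin or the capture was not tested.

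The comparison within classes used a ratio of at least 1.5 either way with at least 50 counts in the higher library. By class, between 6.71% and 40.6% of all genes with enough counts were past this fold. With classes near free RNA included, Ccl3 had enough counts in 18 of 26 classes and was higher in RHS in 4 and lower in 4. Ccl4 was higher in 6 and lower in 5 of 19 classes, Ccl5 in 8 and 2 of 17, Ccl6 in 7 and 1 of 20, Ccl9 in 8 and 1 of 18, and Ccr1 in 2 and 0 of 9. Free RNA itself stood higher in RHS for each gene but Ccl3, and no direction is read from these counts. The Ccl3 exception rested on Krt1 keratinocyte-like cells, with 28 UMIs in RHS and 133 in control (ratio 0.349). Without the cell with most UMIs in each library, an alternative chosen after seeing the data, that ratio was 1.20.

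**Figure D5:**
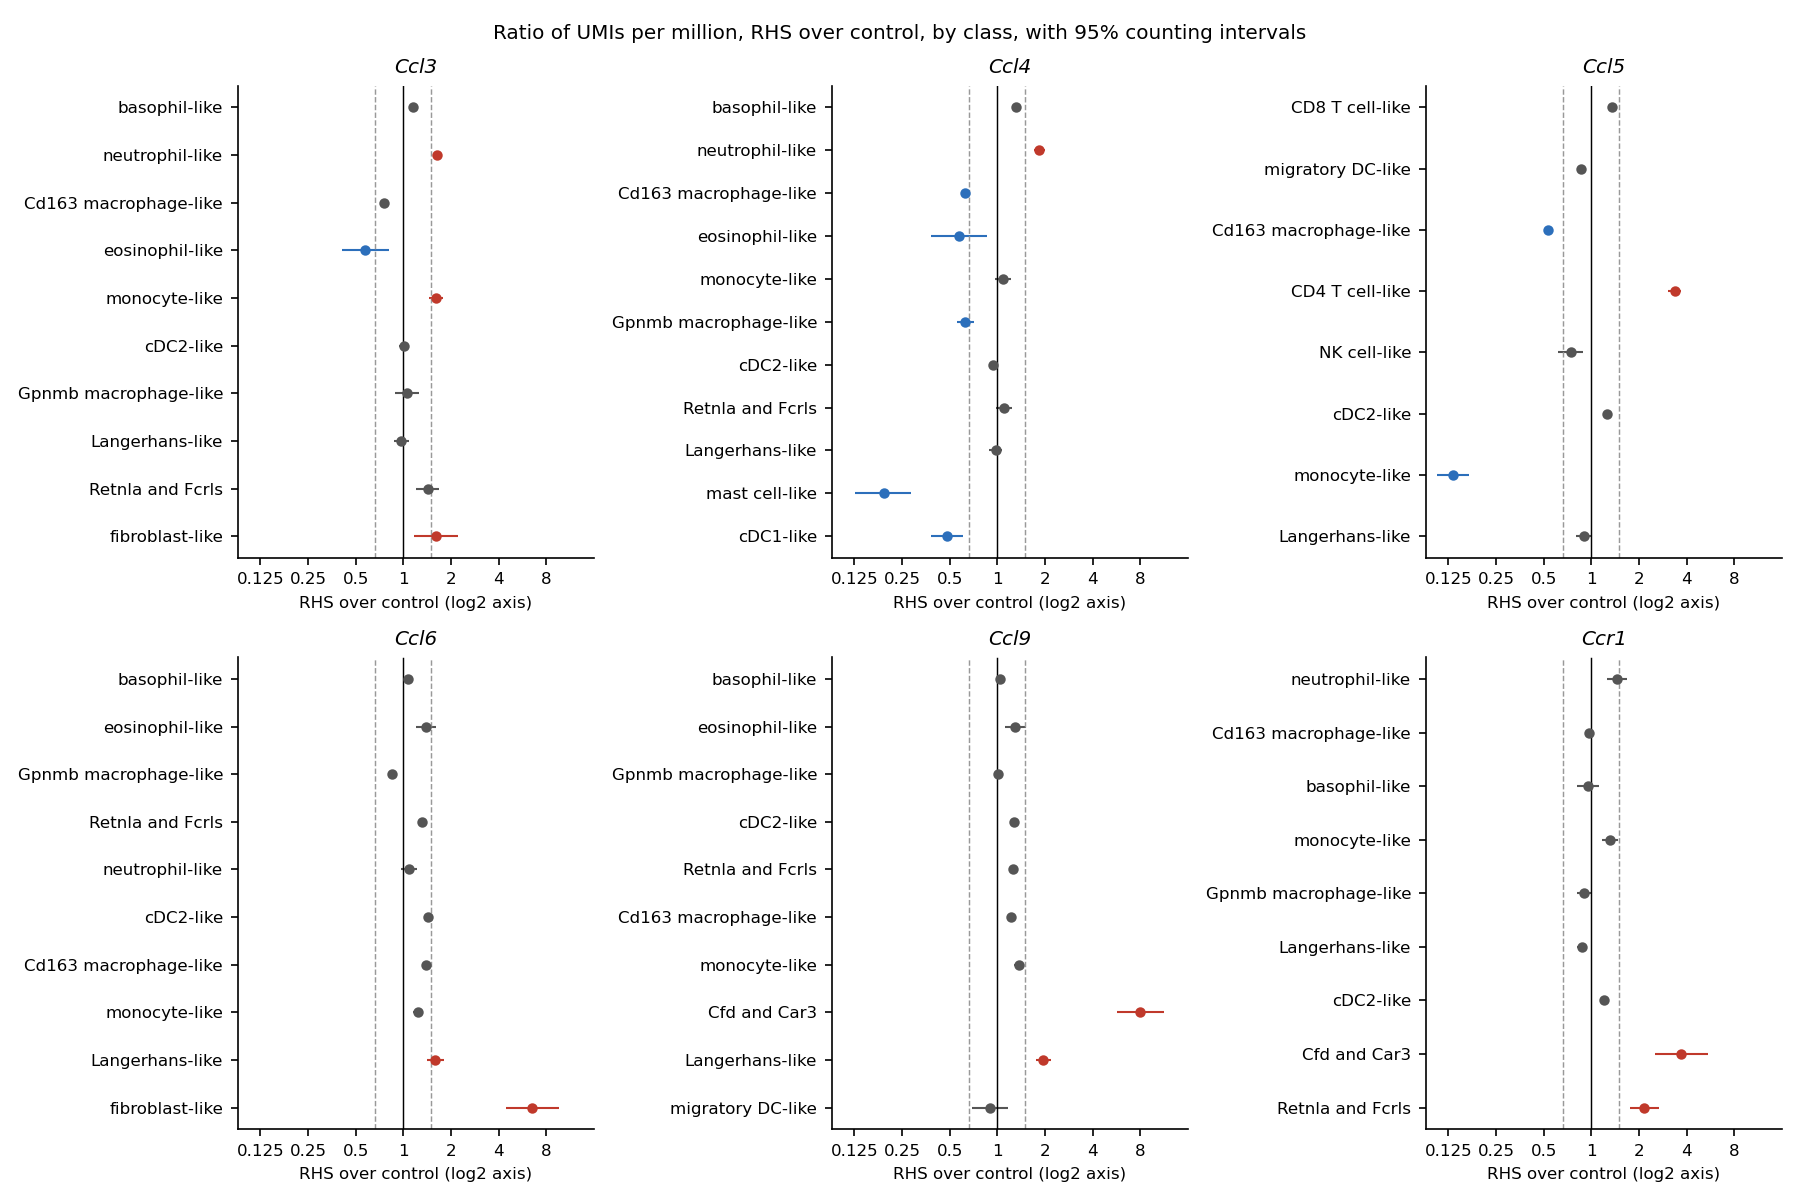
Ratio of CPM, RHS over control (log2 axis), for each gene in classes with enough counts and at least 5 times the free RNA level in either library, ordered by level, with 95% counting intervals; dashed lines mark 1.5-fold either way, red is past it upward and blue downward. Ccl3 and Ccl4 lie to the right in neutrophil-like cells at 1.63 and 1.85, and Ccl4 and Ccl5 to the left in Cd163 macrophage-like cells at 0.622 and 0.532.

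In basophil-like cells none of the 6 genes passed 1.5-fold, where 8.04% of all genes did. The ratios were 1.15 (1.13 to 1.17) for Ccl3, 1.30 (1.27 to 1.34) for Ccl4, 1.06 (1.03 to 1.10) for Ccl6, 1.05 (1.01 to 1.08) for Ccl9 and 0.955 (0.812 to 1.12) for Ccr1. Ccl5 had too few counts. Among 11 immediate early genes measured, Fosb (227 CPM in RHS, 685 CPM in control, ratio 0.332) and Jun (157 and 428 CPM, 0.367) were lower past 1.5-fold and 0 were higher, with a median log2 ratio of -0.12 against -0.03 for all genes. Of 12 NF-kB response genes, 1 was higher (Rel, 1.51) and 3 were lower (Il1a at 0.487, Relb at 0.533 and Nfkbie at 0.608, the last named after its value was seen), with a median log2 ratio of -0.03. Of 6 heat shock genes, 0 were higher and 1 was lower (Hspa1b, 0.402), with a median of -0.04. Of 2 other CC chemokine receptors measured, Ccr2, which draws monocytes and basophils, was lower (78.6 CPM in RHS and 144 CPM in control, 0.547).

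Neutrophil-like cells had more Ccl3 and Ccl4 in RHS. Ccl3 stood at 11879 CPM in RHS and 7269 CPM in control cells, a ratio of 1.63 (1.54 to 1.74). Ccl4 stood at 7194 and 3898 CPM, a ratio of 1.85 (1.70 to 2.00), and was detected in 59.5% of RHS and 40.2% of control cells. Thinned to 500 UMIs per cell, the expected shares were 52.1% and 31.3%. The median depth of the class was 1177.5 UMIs (RHS) and 1272 UMIs (control), and free RNA classes held a Ccl4 UMI in 10.5% and 6.69% of cells. Ccl9 was also past the fold, at 2.78, from 66 and 28 UMIs, below the set distance from free RNA in UMIs per cell. Ccr1 was at 1.45 (1.25 to 1.69) and Ccl6 at 1.08 (0.965 to 1.21). So 3 of the 5 measured members were past 1.5-fold, against 21.4% of all genes in this small class.

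Of 10 NF-kB response genes measured in these cells, 4 were higher and 0 lower, with a median log2 ratio of 0.36 against -0.07 for all genes. Ptgs2, the prostaglandin synthase COX-2, had 2409 CPM in RHS and 1222 CPM in control neutrophil-like cells (1.97). Icam1, an adhesion molecule, had 776 and 460 CPM (1.69), and Tnf, a cytokine gene named after its value was seen, 1362 and 859 CPM (1.59). Of immediate early genes, 0 of 11 were higher and 1 was lower (Fosb, 0.311). Neutrophil markers summed to 46154 CPM (RHS) and 45861 CPM (control), and macrophage markers to 214 and 286 CPM with 8 of 10 detected and Folr2 and Lyve1 at 0.

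Cd163 macrophage-like cells differed the other way for 2 ligands. Ccl4 stood at 3679 CPM in RHS and 5916 CPM in control cells, a ratio of 0.622 (0.612 to 0.632). Ccl5 stood at 710 and 1336 CPM, a ratio of 0.532 (0.513 to 0.552), with a UMI in 27.9% of RHS and 40.1% of control cells. Ccl3 was at 0.751 (0.729 to 0.773). Ccl6 at 1.38 (1.35 to 1.42) and Ccl9 at 1.22 (1.18 to 1.25) lay on the other side of 1, and Ccr1 was at 0.967 (0.925 to 1.01). The 2 of 6 members past 1.5-fold stand against 8.12% of all genes. Tnf, at 490 CPM in RHS and 785 CPM in control cells (0.624), and Relb, an NF-kB subunit, at 49.4 and 79.9 CPM (0.618), were the 2 of 15 NF-kB response genes past the fold, both lower. None of the 6 other CC ligands measured was past it, with a median log2 ratio of -0.15 against 0.06 for all genes. Macrophage markers summed to 9788 CPM (RHS) and 9238 CPM (control), with 10 of 10 detected, and CD8 T cell markers to 39.9 and 28.6 CPM with 7 of 7 detected. The part of CD8 T cell markers in the result was not tested.

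Gpnmb macrophage-like cells had Ccl4 at 225 CPM in RHS and 358 CPM in control, a ratio of 0.629 (0.554 to 0.713), while Ccl3 was at 1.06 (0.892 to 1.25), Ccl6 at 0.844, Ccl9 at 1.01 and Ccr1 at 0.897. The Ccl4 call, 1 of 6 members against 9% of all genes, was lost with at least 500 genes per cell and with the mean over cells.

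Monocyte-like cells had Ccl3 at 734 CPM in RHS and 458 CPM in control, a ratio of 1.60 (1.45 to 1.78) that was 1.42 with the mean over cells. Ccl5 was lower, at 55.8 CPM (93 UMIs in 398 RHS cells) against 414 CPM (475 UMIs in 278 control cells), a ratio of 0.135 (0.107 to 0.169). These control UMIs came from few cells: 7.29% of RHS and 12.9% of control cells held any. The top 10% of control cells held 98.3% of the control UMIs, a share bound to be high when 12.9% held any. Without the cell with most UMIs in each library the ratio was 0.134. CD8 T cell markers ran the other way, with 78.0 CPM (RHS) and 20.9 CPM (control) summed over 7 genes, and migratory dendritic cell markers summed to 20.4 and 21.8 CPM with Nudt17 at 0. Ccl4 was at 1.09, Ccl6 at 1.23, Ccl9 at 1.38 and Ccr1 at 1.31. The 2 of 6 members past the fold stand against 9.91% of all genes. Of 14 NF-kB response genes measured, 1 was higher, Il1b at 6496 CPM in RHS and 3957 CPM in control cells (1.64), and 1 was lower, Il1a at 65.4 and 128 CPM (0.510), with a median log2 ratio of -0.02 against 0.01 for all genes.

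Eosinophil-like cells had few counts of Ccl3 (64 UMIs in RHS, 80 in control; ratio 0.577, 0.409 to 0.812) and Ccl4 (46 and 58 UMIs; 0.572, 0.380 to 0.857). Ccl3 was detected in 25.3% of RHS and 53.7% of control cells. Ccl6 at 1.39 (1.20 to 1.62) and Ccl9 at 1.30 (1.11 to 1.52) were within 1.5-fold. In this class 2 of 4 measured members were past the fold, against 12.1% of the 198 genes with enough counts.

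In CD4 T cell-like cells Ccl5 stood at 746 CPM in RHS (1593 UMIs) and 223 CPM in control (541 UMIs), a ratio of 3.35 (3.04 to 3.70). It was detected in 234 of 1015 RHS and 135 of 964 control cells. With cells holding a Cd8a or Cd8b1 UMI left out, an alternative chosen after seeing the data, the ratio was 3.12. Gzma and Gzmb, which encode granzymes, were the 2 of 5 measured cytotoxic genes past the fold, both higher: Gzma had 88.5 CPM in RHS and 38.7 CPM in control (2.29), and Gzmb 522 and 306 CPM (1.71). CD8 T cell markers, of which 4 of 7 also stand in the CD4 T cell list, summed to 3786 CPM (RHS) and 3490 CPM (control). Macrophage markers summed to 52.5 and 24.7 CPM with 9 of 10 detected and Lyve1 at 0. Monocyte markers summed to 683 and 388 CPM with 9 of 9 detected, and basophil markers to 343 and 248 CPM with 8 of 8 detected. Higher in RHS were 7 of 10 macrophage, 5 of 9 monocyte and 3 of 8 basophil markers. Their part was not tested. Ccl6 (107 UMIs in RHS and 76 in control, 1.60) and Ccl9 (74 and 50 UMIs, 1.69) were also past the fold, both near free RNA, against 7.09% of all genes in this class.

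In CD8 T cell-like cells Ccl5 was within 1.5-fold, at 1.35 (1.32 to 1.39), where 6.74% of all genes were past it. Migratory dendritic cell-like cells had Ccl5 at 0.858 (0.825 to 0.893) and Ccl9 at 0.897 (0.690 to 1.16), with a background of 7.99%. NK cell-like cells had Ccl5 at 0.740 (0.615 to 0.889), with a background of 8.49%. In CD8 T cell-like cells Ccl6 (159 UMIs in RHS and 34 in control, 1.80) and Ccl9 (108 and 25 UMIs, 1.67) were past the fold, both near free RNA.

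cDC2-like cells had all 6 genes within 1.5-fold, where 7.88% of all genes were past it. Ccl6 came closest, at 1.42 (1.40 to 1.45), followed by Ccl9 at 1.28, Ccl5 at 1.26, Ccr1 at 1.20, Ccl3 at 1.00 and Ccl4 at 0.936. Of 6 other CC ligands measured, 3 were higher and 1 lower, with a median log2 ratio of 0.50 against 0.02 for all genes. Ccl17, a ligand of Ccr4, had 278 CPM in RHS and 141 CPM in control (1.97), and Ccl24, an eotaxin that binds Ccr3, 23.6 and 13.8 CPM (1.71). Ccl8 was lower at 6.76 and 16.7 CPM (0.405).

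Langerhans cell-like cells had low but higher Ccl6 and Ccl9 in RHS. Ccl6 stood at 164 CPM in RHS and 104 CPM in control, a ratio of 1.59 (1.40 to 1.80), and Ccl9 at 251 and 129 CPM, a ratio of 1.95 (1.76 to 2.17). Ccl9 was detected in 27.2% of RHS and 20.2% of control cells. Both calls were lost with at most 10% mitochondrial UMIs per cell, and that of Ccl6 also at resolution 2.0. They were 2 of 6 members, against 7.38% of all genes. Of 6 other CC ligands measured, 4 were higher and 0 lower, among them Ccl24 (129 CPM in RHS and 38.4 CPM in control, 3.35), and Ccl7 (37.1 and 14.7 CPM, 2.52). Macrophage markers summed to 2581 CPM (RHS) and 2695 CPM (control) with 9 of 10 detected and Lyve1 at 0, and monocyte markers to 1254 and 990 CPM with 9 of 9 detected. Their part in the result was not tested.

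In the Retnla and Fcrls cluster Ccr1 was higher, at 130 CPM in RHS and 60.2 CPM in control, a ratio of 2.17 (1.77 to 2.67). It was 1 of 6 members, against 8.34% of all genes, and the call was lost with at most 10% mitochondrial UMIs. Macrophage markers summed to 1370 CPM (RHS) and 1051 CPM (control) here with 10 of 10 detected, monocyte markers to 3867 and 2880 CPM with 9 of 9 detected, and CD8 T cell markers to 84.0 and 22.9 CPM with 7 of 7 detected. Their part was not tested.

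Further calls were found in cDC1-like, mast cell-like and fibroblast-like cells, some of them resting on few cells. In cDC1-like cells Ccl4 was at 71.0 CPM in RHS and 147 CPM in control, a ratio of 0.481. That ratio was 1.05 with at least 500 genes per cell. Ccl5 (89 UMIs in RHS and 43 in control, 2.15) and Ccl9 (170 and 101 UMIs, 1.75) were higher past the fold there, both near free RNA. In this class 8.9% of all genes were past the fold. In mast cell-like cells Ccl4 had 28 UMIs in RHS and 258 UMIs in control, of which 145 came from 1 cell, and the ratio of 0.194 was 0.410 without the cell with most UMIs in each library; 8.87% of all genes were past the fold. In fibroblast-like cells, with 29.7% of all genes past the fold, Ccl6 had 183 UMIs in RHS and 34 in control (6.46). Without the cell with most UMIs in each library that ratio was 5.81. Ccl3 there was at 1.60 and at 0.801 without the cell with most UMIs. All macrophage markers were detected in fibroblast-like cells and summed to 186 CPM (RHS) and 46.5 CPM (control), and their part was not tested.

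The Cfd and Car3 cluster had Ccl9 at 629 CPM in RHS (300 UMIs) and 79.3 CPM in control (41 UMIs), a ratio of 7.93, and Ccr1 at 264 and 71.6 CPM (3.69). Without the cell with most UMIs in each library, an alternative chosen after seeing the data, the ratios were 26.8 and 10.9. Over the alternatives run they lay between 2.55 and 44.9 for Ccl9 and between 2.38 and 15.0 for Ccr1. Ccl9 was detected in 12.8% of RHS and 4.62% of control cells. In this cluster 40.6% of all genes were past the fold. Neutrophil markers, which include Mmp9, a leading gene of the cluster, summed to 3038 CPM (RHS) and 629 CPM (control). Of these markers 7 of 9 were detected, with Ly6g and Retnlg at 0, and only 2 of 9 were higher in RHS. Their part was not tested.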

How the data were processed

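Skin cells were captured on the BD Rhapsody system and ganglia nuclei with 10x Genomics 3' chemistry, per the labels' protocols. Values in the deposited matrices are UMI counts, whole numbers without scaling, per the file headers. The submitters' processing notes name GRCm39, R 3.6.0, Seurat 5.1.0 and Cell Ranger, with no role given; how skin barcodes were called is not stated there. Each deposited skin barcode had at least 500 UMIs.

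Barcodes under 200 genes (92 RHS, 54 control) or over 20% mitochondrial UMIs (179 RHS, 202 control) were removed. Scrublet at an expected 6% removed 115 (0.880%) and 146 (1.15%) doublets, fewer than expected, so some may remain in the classes. Counts scaled to 10000 per cell, 2000 variable genes (without the members and other CC ligands and receptors), 30 principal components, 15 neighbours and Leiden resolution 1.0 gave the classes (scanpy 1.11.5, leidenalg 0.10.2, Python 3.11.15). A class was named from at least 3 markers present. Counts were summed per class and library as CPM with exact Poisson 95% intervals, shares with Clopper-Pearson intervals and ratios with exact conditional binomial intervals. The ratio and fold call were tested on simulated Poisson counts, which hold no spread between cells, mice or libraries. This checks the counting error only. Members, lists and markers were chosen with earlier results of these data known. All 6 members are named, with Ccr3 (a further receptor of that rule is not reported here), and from each list the 2 highest and 2 lowest ratios with at least 50 counts could be named. Genes of like pattern were the 3 highest Pearson correlations of log2(CPM + 1) over classes. The ganglia library has no partner group and enters no comparison.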

Additional observations from a re-analysis of the deposited data

Results flagged for a closer look

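The ganglia library, from mice given RHS and MC903, enters no comparison. It held UMIs of all 6 genes above the limit that a count of 0 allows (0.270 CPM over 4706 nuclei). Ccl6 stood at 54.0 CPM, Ccl9 at 22.2 CPM, Ccr1 at 7.39 CPM, Ccl5 at 3.06 CPM, Ccl3 at 1.26 CPM and Ccl4 at 1.08 CPM. A Ccl6 UMI was found in 6.99% of nuclei and a Ccl3 UMI in 0.255%. Ccr3 had no UMI.

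For 5 genes the RHS over control ratio ran in opposite directions in different classes, and the difference between classes was not tested. Ccl5 was at 36.1 in mast cell-like cells (101 UMIs in RHS, 5 in control) and 0.135 in monocyte-like cells. Ccl4 was at 2.60 in regulatory T cell-like cells (56 and 27 UMIs) and 0.194 in mast cell-like cells (28 and 258 UMIs). Ccl3 was at 3.50 in the Igfbp3 and Slc26a7 cluster (92 and 49 UMIs) and 0.242 in the Elovl6 and Fa2h cluster (27 and 124 UMIs). Ccl6 was at 6.46 in fibroblast-like cells (183 and 34 UMIs) and 0.514 in the Elovl6 and Fa2h cluster (49 and 106 UMIs). Over the alternatives run the first lay between 3.41 and 25.5. The second lay between 0.255 and 0.822 and was no longer past 1.5-fold as a mean over cells and without the cell with most UMIs, the last chosen after seeing the data. Ccl9 was at 7.93 in the Cfd and Car3 cluster (300 and 41 UMIs) and 0.467 in the Elovl6 and Fa2h cluster (34 and 81 UMIs). Most of these pairs have few counts near the free RNA level, and CD8 T cell markers in mast cell-like cells summed to 103 CPM (RHS) and 19.2 CPM (control).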

How the results depend on the processing

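No paired analysis was possible because each group had 1 library. Over all skin cells each of the 6 ratios stayed above 1 in each alternative run, which did not include fixed class shares. With class shares held at their mean over the 2 libraries, Ccl4 turned round to 0.798 while the other genes stayed above 1. With at most 10% mitochondrial UMIs per cell the ratios were 1.14 (Ccl3), 1.24 (Ccl4), 1.64 (Ccl5), 1.64 (Ccl6) and 1.56 (Ccl9). Scaled by the median ratio over genes they were 1.23, 1.34, 1.82, 1.77 and 1.69, and 1.68 for Ccr1. As a mean over cells they were 1.03, 1.17, 2.40, 1.39, 1.31 and 1.43, so that Ccl6, Ccl9 and Ccr1 were no longer past 1.5-fold. The number of classes past the fold was 8 (Ccl3), 11 (Ccl4), 10 (Ccl5), 8 (Ccl6), 9 (Ccl9) and 2 (Ccr1). With a minimum of 200 counts it was 2, 5, 4, 1, 2 and 1. At 2-fold it was 4 for Ccl3, 5 for Ccl4, 3 for Ccl6 and 5 for Ccl9. The class with the highest level was the same as a mean over cells for all 6 genes.

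Of 922 values of a ratio by class under 11 alternatives, 746 stayed within the counting interval of the reported ratio, 170 left it and 6 turned round. Without the cell with most UMIs, an alternative chosen after seeing the data, Ccl3 was at 1.20 in Krt1 keratinocyte-like and 0.801 in fibroblast-like cells. With doublets kept, Ccl4 was at 0.735 in Krt1 keratinocyte-like cells, and with at least 500 genes per cell at 1.05 in cDC1-like cells. With free RNA subtracted, Ccl5 was at 0.643 in cDC1-like cells, and as a mean over cells Ccl9 was at 1.13 in the Elovl6 and Fa2h cluster. The cause was not tested. Depth was lowest in eosinophil-like cells, which had 65560 UMIs in RHS and 47284 in control.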
